A study of Mus musculus with 16 samples.

Results

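The 10 genes described here carry or restrain the Notch signal. They were chosen by name out of 35613 genes in the deposited files: the repressors Hes1, Hes6, Hey1, Hey2 and Heyl, the feedback genes Nrarp and Dtx4, the DNA-binding protein Rbpj, and the inhibitors Numb and Numbl. All 10 passed the filter on low counts. Poly(A) RNA of cultured mouse muscle cells was sequenced in 16 libraries, of which 15 formed 5 groups of 3 replicates and 1 stood alone.

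All libraries came from skeletal muscle primary myoblasts of genotype Pax7-nGFP, in which a nuclear green fluorescent protein reports Pax7, the transcription factor of muscle stem cells. The parental lines of the 5 groups were made from male animals aged 16 weeks. Bulk myoblasts were unsorted cells at passage 3 in myoblast medium (20% FBS, 10% horse serum and 10 ng/ml basic FGF). GFP+ myoblasts were grown in the same medium and sorted for the reporter at passage 5 to 6. Differentiated myoblasts, at passage 4 to 5, had spent 3 days in 2% horse serum. Bulk MPC (the labels do not spell the name out) were unsorted cells that had spent 2 to 3 passages as myoblasts and then 5 to 6 passages in MPC medium, and GFP+ MPC were such cells sorted for the reporter. MPC medium held 5 µM forskolin, which raises cyclic AMP, 5 µM RepSox, which blocks signalling by TGF-beta receptors, 3 µM of a compound named CHIR9901, 10% FBS, 10% knockout serum replacement and 10 ng/ml basic FGF. The single library, called high-passage here, came from a female of 39 weeks. Its cells were sorted as GFP- myoblasts at passage 8, kept for 2 passages in MPC medium and then sorted as GFP+. Each sort took 300000 to 500000 cells.

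Notch is a receptor that is cut when a ligand on a neighbouring cell binds it. The freed intracellular domain enters the nucleus, joins the DNA-binding protein Rbpj and switches on target genes, among them the Hes and Hey repressors and Nrarp, which in turn dampens the signal. In muscle, Notch signalling holds satellite cells in the stem cell state, and it falls when myoblasts differentiate. Hes6 is an unusual member of its family: it is not activated by Notch, counteracts Hes1 and is known to favour myogenic differentiation.

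Promoter windows from RefSeq (mouse build GRCm38.p6, 250 bases before to 50 bases after a transcript start, 300 bases in all) were at hand for 6 of the 10 genes: Hes6, Hey2, Nrarp, Rbpj, Numb and Numbl. Hes1, Hey1, Heyl and Dtx4 are named only. The windows were searched on both strands for TGGGAA (the core of the Rbpj site), CACGTG (an E-box of the class that Hes and Hey proteins can bind) and CANNTG (the general E-box of myogenic factors, of which CACGTG is a spelling). Of 32817 windows of the same length, 25.6% held TGGGAA, 7.15% held CACGTG and 72.3% held CANNTG. The windows printed are those of a Hey repressor, a feedback gene and the Hes gene that moved the other way in the comparison of sorted cells. Each is printed 5′ to 3′ on the strand of the gene.
Hey2, chr10:30842734-30843033, minus strand, TGGGAA on either strand in capitals: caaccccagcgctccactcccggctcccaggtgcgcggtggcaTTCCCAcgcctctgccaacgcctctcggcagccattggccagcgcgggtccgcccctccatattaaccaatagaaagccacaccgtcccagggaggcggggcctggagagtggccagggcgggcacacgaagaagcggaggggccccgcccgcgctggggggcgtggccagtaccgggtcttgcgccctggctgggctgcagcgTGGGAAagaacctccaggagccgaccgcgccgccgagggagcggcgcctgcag
Nrarp, chr2:25180508-25180807, plus strand, CACGTG in capitals: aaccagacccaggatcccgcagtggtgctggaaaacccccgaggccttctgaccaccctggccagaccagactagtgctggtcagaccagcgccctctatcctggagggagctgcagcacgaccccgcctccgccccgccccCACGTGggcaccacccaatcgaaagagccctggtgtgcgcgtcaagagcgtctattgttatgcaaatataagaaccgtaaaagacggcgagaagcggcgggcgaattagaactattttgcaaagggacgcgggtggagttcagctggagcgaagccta
Hes6, chr1:91413173-91413472, minus strand, CANNTG in capitals: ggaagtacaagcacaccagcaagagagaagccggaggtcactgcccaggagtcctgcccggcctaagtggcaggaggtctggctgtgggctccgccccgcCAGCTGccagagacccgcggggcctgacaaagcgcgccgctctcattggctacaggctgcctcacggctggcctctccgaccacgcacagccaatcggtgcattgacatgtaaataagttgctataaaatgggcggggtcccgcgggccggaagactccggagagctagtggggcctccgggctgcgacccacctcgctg

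The Hey2 window held TGGGAA at 207 and 3 bases upstream of the start. The Nrarp window held no TGGGAA and held CACGTG at 108 bases upstream. The Hes6 window had neither of these and a single CANNTG, and a window at another Hes6 start held 3 CANNTG and no TGGGAA. Rbpj itself had TGGGAA in both of its windows, which overlap. One window held 2 matches, and the 1 match in the other is the same stretch as 1 of these 2. Neither the 3 Numb windows nor the Numbl window held TGGGAA or CACGTG. These matches describe letters, not binding.

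Levels are given as CPM, the count scaled to a common library total after TMM, which corrects each total for the bulk of its genes. Levels of different genes are compared by TPM, which also divides by transcript length. Libraries held 19.3 to 29.1 M (mega) estimated counts. Adjusted p values are Benjamini-Hochberg values over 15533 tested genes from edgeR's quasi-likelihood test, with a threshold of 0.05, and measure the spread between libraries that the labels call biological replicates and describe no further. Pax7 ran from 528 to 658 CPM in bulk myoblasts and from 829 to 1005 CPM in GFP+ myoblasts. It ran from 25.4 to 65.1 CPM in differentiated myoblasts, 57.2 to 137 CPM in bulk MPC and 596 to 867 CPM in GFP+ MPC. Myod1 was present in every library. Its mean was 730 CPM in bulk myoblasts, 918 CPM in GFP+ myoblasts, 329 CPM in differentiated myoblasts, 162 CPM in bulk MPC and 195 CPM in GFP+ MPC. Markers of differentiating muscle (8 genes, among them Myog, Ckm and Myh3) summed to 55497 to 74090 CPM in bulk MPC and 55582 to 64270 CPM in differentiated myoblasts, against 768 to 1646 CPM in GFP+ MPC and 464 to 773 CPM in GFP+ myoblasts. Endothelial markers summed to at most 15.3 CPM and macrophage markers to at most 10.9 CPM in every library. In such bulk RNA, fewer cells of a type and less RNA per cell cannot be told apart. The sorted cells had another RNA kit than the unsorted ones, and sorted myoblasts were also at a later passage than bulk myoblasts, which cannot be told apart from sorting itself; the MPC groups had the same passages. Scaling by library totals without TMM, an alternative chosen after seeing the data, moved the median of all genes by 0.47 on the log2 scale in GFP+ MPC against bulk MPC, 0.37 in the difference of sort effects, -0.36 in bulk MPC against bulk myoblasts, -0.22 in differentiated against bulk myoblasts, -0.14 in bulk MPC against differentiated myoblasts and 0.11 in GFP+ against bulk myoblasts. It moved it by 0.01 in the comparison of the sorted groups.

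**Figure D1:**
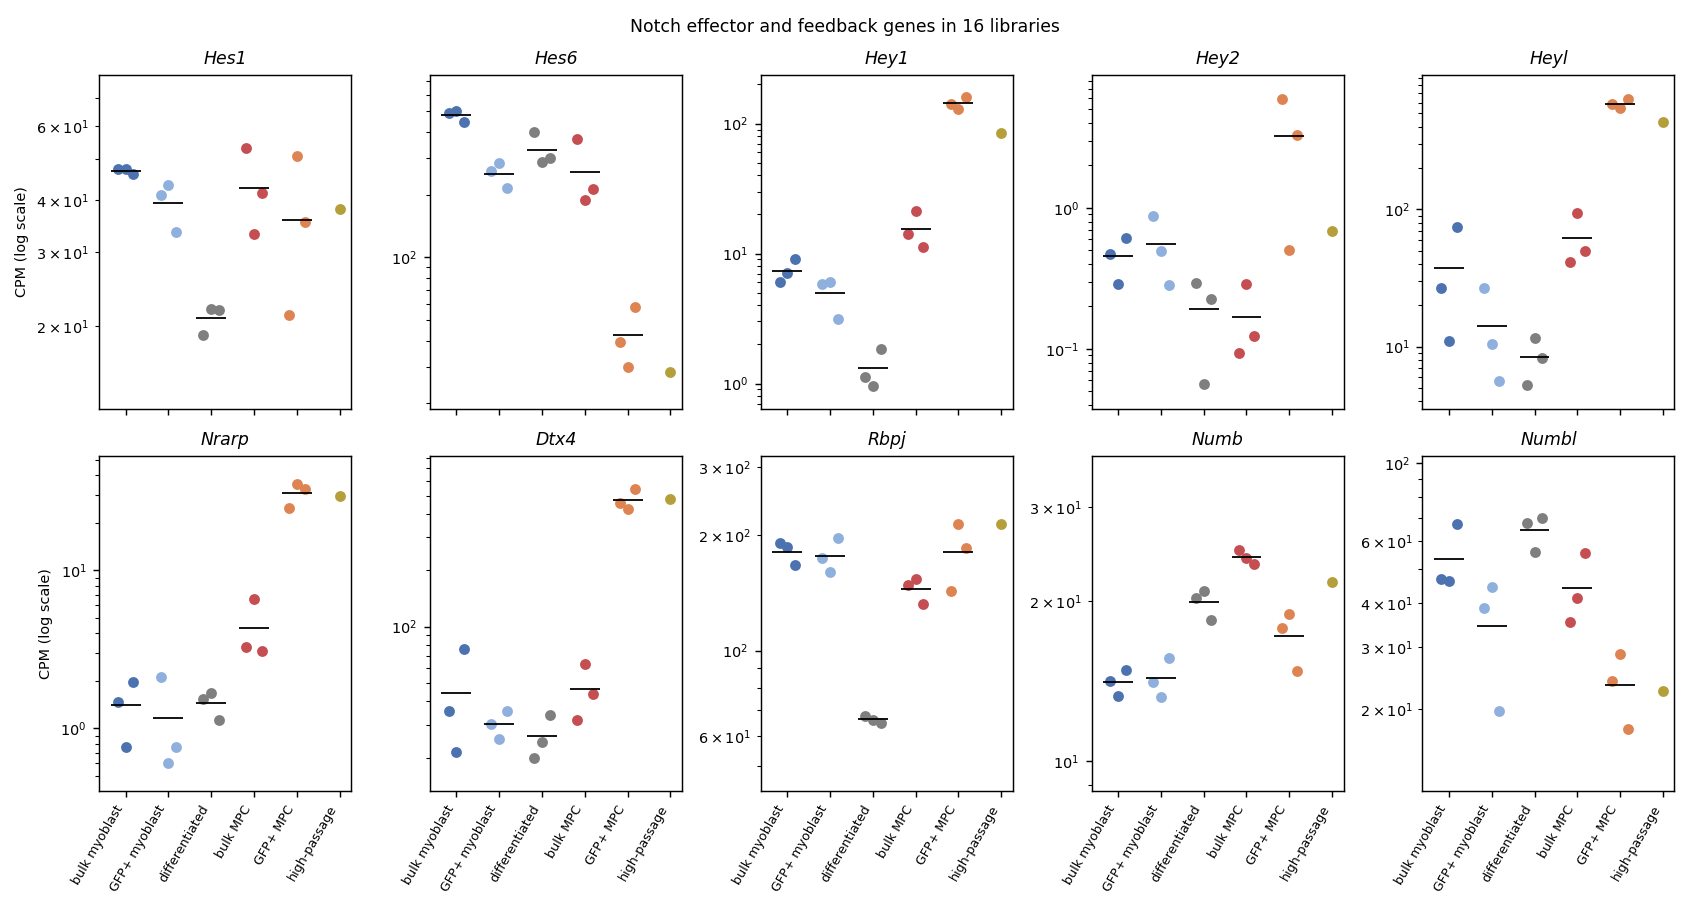
Level of each of the 10 genes (CPM, log scale) in every library, with 1 point per library and a line at the mean of each group of 3; the high-passage library is a single point. Among the replicated groups, Hey1, Heyl, Nrarp and Dtx4 lie highest and Hes6 lies lowest in the 3 GFP+ MPC libraries, Rbpj lies lowest in the 3 differentiated libraries, and the mean of Hes1 is lowest there.

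The Hey repressors bind E-box-like DNA and are classic direct targets of Notch. Hey1 was counted at 141.6, 129.9 and 158.9 CPM in GFP+ MPC replicates 1 to 3. It was at 14.1, 21.3 and 11.2 CPM in bulk MPC, 6.02, 7.03 and 9.01 CPM in bulk myoblasts, 5.80, 6.07 and 3.14 CPM in GFP+ myoblasts, and 1.13, 0.955 and 1.85 CPM in differentiated myoblasts. Every GFP+ MPC library lay above every bulk MPC library, every bulk MPC library above every bulk myoblast library, and the differentiated libraries below all others. The myoblast groups, sorted and unsorted, overlapped. In GFP+ MPC, Hey1 was 4.83 ± 0.31 higher on the log2 scale than in GFP+ myoblasts (standard error, n = 3 per group, edgeR adjusted p = 9.39e-08). It rose by 1.08 ± 0.27 in bulk MPC over bulk myoblasts (edgeR adjusted p = 0.00410) and fell by 2.49 ± 0.33 on differentiation (edgeR adjusted p = 4.11e-05).

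Heyl, a close relative of Hey1, reached 584, 545 and 640.1 CPM in GFP+ MPC. It was far lower and more variable elsewhere: 41.6, 94.2 and 49.9 CPM in bulk MPC, 26.6, 10.96 and 74.5 CPM in bulk myoblasts, 26.7, 10.4 and 5.61 CPM in GFP+ myoblasts, and 5.27, 11.6 and 8.20 CPM in differentiated myoblasts. The GFP+ MPC libraries stood above all others, and each neighbouring pair of the 4 remaining groups overlapped. The rise in GFP+ MPC over GFP+ myoblasts was 5.36 ± 0.72 (edgeR adjusted p = 5.52e-05), and 6.19 without GFP+ myoblast replicate 1. The fall on differentiation, by 2.17 ± 0.66 (edgeR adjusted p = 0.0132), was lost on leaving out either of 2 libraries: without bulk myoblast replicate 3 it was 1.18 (edgeR adjusted p = 0.106), and without differentiated replicate 1 the adjusted p was 0.0567. Bulk MPC and bulk myoblasts differed by 0.73 ± 0.61 (edgeR adjusted p = 0.324), but by 1.71 (edgeR adjusted p = 0.0276) without bulk myoblast replicate 3.

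Hey2, the least abundant of the Hey genes, had 130, 12 and 84 counts in GFP+ MPC, which is 5.89, 0.506 and 3.31 CPM. Its other 12 replicated libraries held 1 to 28 counts. Replicate 2 of GFP+ MPC lay inside the range of the GFP+ myoblasts (0.874, 0.493 and 0.285 CPM), so these groups overlapped although the test called the rise of 2.51 ± 0.70 (edgeR adjusted p = 0.00955). Without GFP+ MPC replicate 1 the rise was 1.75 (edgeR adjusted p = 0.0557), and with only the compared groups in the fit it was 2.45 (edgeR adjusted p = 0.0570).

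Hes6 went the other way. It was at 490.5, 500.6 and 444.2 CPM in bulk myoblasts, 258.2, 282.8 and 214.1 CPM in GFP+ myoblasts, 399.6, 284.9 and 298.7 CPM in differentiated myoblasts, and 367.1, 187.5 and 213.7 CPM in bulk MPC. In GFP+ MPC it was at 39.5, 30.0 and 57.8 CPM. Bulk myoblasts stood above and GFP+ MPC below all other replicated libraries, and the 3 groups between overlapped. Hes6 was 2.57 ± 0.27 lower in GFP+ MPC than in GFP+ myoblasts on the log2 scale (edgeR adjusted p = 7.39e-06). It was also lower in bulk MPC than in bulk myoblasts, by 0.90 ± 0.26 (edgeR adjusted p = 0.00886). Its change on differentiation was -0.55 ± 0.26 (edgeR adjusted p = 0.0888), -0.77 (edgeR adjusted p = 0.0165) with library totals in place of TMM, and -0.54 (edgeR adjusted p = 0.0104) with the compared groups alone in the fit.

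Hes1, the textbook Notch target and repressor, passed the test only in the comparisons with differentiated myoblasts. Its levels there were 18.997, 21.9 and 21.8 CPM, below the 47.4, 47.4 and 46.2 CPM of bulk myoblasts, a fall of 1.17 ± 0.25 on the log2 scale (edgeR adjusted p = 0.00147). It had 21.3, 50.8 and 35.4 CPM in GFP+ MPC and 41.2, 43.3 and 33.5 CPM in GFP+ myoblasts. The 3 GFP+ MPC libraries spread over both sides of the GFP+ myoblasts, and the change was -0.13 ± 0.24 (edgeR adjusted p = 0.670). In bulk MPC, at 53.1, 33.1 and 41.6 CPM, Hes1 differed from bulk myoblasts by -0.14 ± 0.24 (edgeR adjusted p = 0.641).

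On the TPM scale the makeup of this repressor family turned over. Hes6 held a mean of 82.6% of the summed TPM of Hes1, Hes6, Hey1, Hey2 and Heyl in GFP+ myoblasts (81.4% to 83.8% over 3 libraries) and 11.9% in GFP+ MPC (9.03% to 14.97%). Hey1 and Heyl together held 2.43% in GFP+ myoblasts and 76.0% in GFP+ MPC (74.3% to 79.1%), with Heyl at 48.9% and Hey1 at 27.2%. Between these sorted groups the summed TPM itself moved far less, from 386 to 416. It differed more among the unsorted groups, at 646 in bulk myoblasts, 366 in differentiated myoblasts and 273 in bulk MPC. These sums carry no TMM correction. The TMM factors were 1.033 to 1.058 in bulk myoblasts, 0.881 to 0.916 in differentiated myoblasts and 0.767 to 0.867 in bulk MPC. The part of scaling in the differences between the sums was not tested. In makeup, bulk MPC stood between the sorted groups, with 75.9% from Hes6 (70.8% to 82.1%) and 9.36% from Hey1 and Heyl (4.46% to 15.5%). Differentiated myoblasts had the most one-sided makeup, with 91.6% from Hes6 and 1.09% from Hey1 and Heyl. The share of Hes1 was 14.9% in GFP+ myoblasts and 11.5% in GFP+ MPC. With protein-coding transcripts alone, an alternative chosen after seeing the data, Hes6 went from 83.1% to 12.1% and Heyl from 1.34% to 50.3%. These shares restate the levels above and carry no test of their own.

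**Figure D2:**
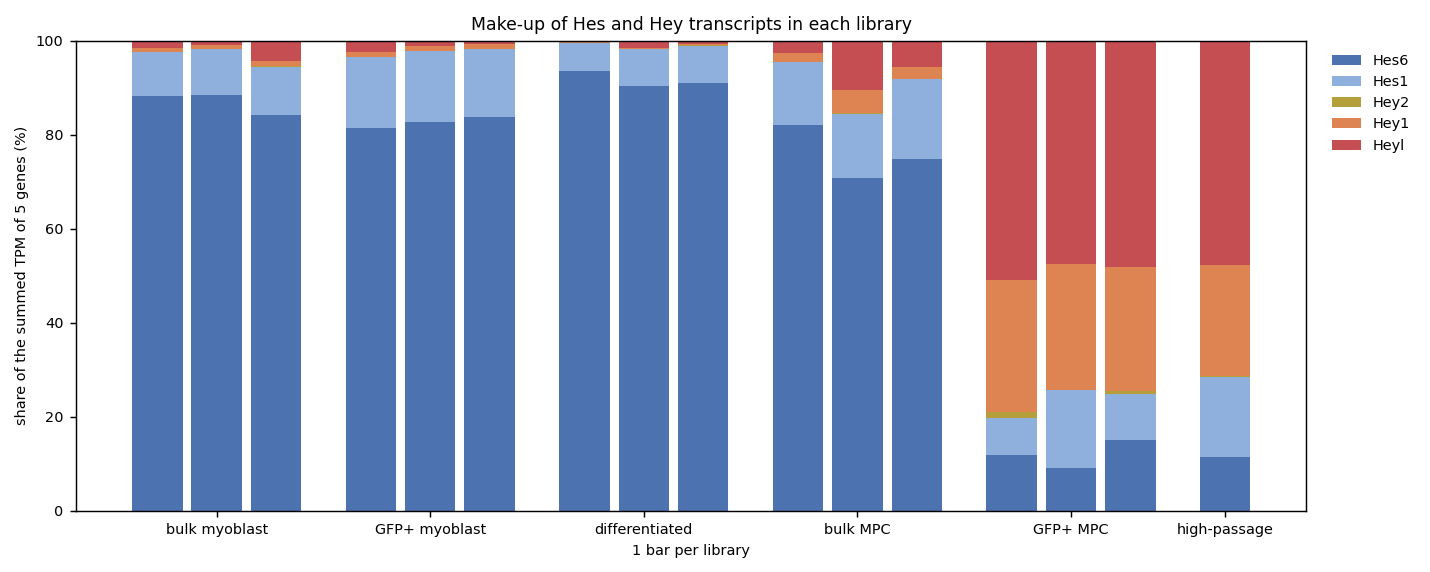
Share (%) of the summed TPM of Hes1, Hes6, Hey1, Hey2 and Heyl held by each gene, with 1 bar per library. Hes6 fills 70.8% or more of every bar outside GFP+ MPC and the high-passage library, where Hey1 and Heyl together fill 71.3% to 79.1%.

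Of the feedback genes, Nrarp is a small ankyrin-repeat protein that is induced by Notch and promotes loss of the intracellular domain. It was at 24.6, 35.2 and 32.6 CPM in GFP+ MPC, 3.27, 6.56 and 3.10 CPM in bulk MPC, and at most 2.12 CPM in any library of the 3 other replicated groups. GFP+ MPC stood above bulk MPC and bulk MPC above the rest without overlap, whereas bulk, GFP+ and differentiated myoblasts overlapped. The rise in GFP+ MPC over GFP+ myoblasts was 4.69 ± 0.48 (edgeR adjusted p = 5.53e-06), and 5.49 without GFP+ myoblast replicate 1. In bulk MPC it was 1.60 ± 0.45 over bulk myoblasts (edgeR adjusted p = 0.00759). On differentiation Nrarp stood at 1.53, 1.68 and 1.12 CPM against 1.47, 0.766 and 1.97 CPM, a change of 0.03 ± 0.47 (edgeR adjusted p = 0.968) whose sign flipped with library totals (-0.19).

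Dtx4, a Deltex-family E3 ubiquitin ligase of the Notch pathway, was at 457, 427 and 543 CPM in GFP+ MPC. No other replicated library exceeded the 76.2 CPM of bulk myoblast replicate 3. Its levels in GFP+ myoblasts were 30.2, 25.1 and 35.3 CPM, so that the rise in GFP+ MPC was 3.98 ± 0.41 (edgeR adjusted p = 6.09e-06). Unlike Hey1 and Nrarp, it did not pass the test in bulk MPC (31.7, 63.5 and 43.9 CPM) against bulk myoblasts (35.3, 21.4 and 76.2 CPM): the difference was 0.06 ± 0.37 (edgeR adjusted p = 0.893), and -0.28 with library totals.

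Rbpj, the DNA-binding partner that all Notch receptors use, varied little between growing cells. It was at 190.2, 185.6 and 166.5 CPM in bulk myoblasts, 173.8, 159.6 and 196.9 CPM in GFP+ myoblasts, and 142.6, 213 and 185 CPM in GFP+ MPC. These 3 groups overlapped, and GFP+ MPC differed from GFP+ myoblasts by 0.03 ± 0.13 (edgeR adjusted p = 0.873). In differentiated myoblasts it dropped to 67.7, 66.1 and 64.8 CPM, by 1.45 ± 0.13 on the log2 scale (edgeR adjusted p = 2.38e-06). Bulk MPC, at 147.9, 153.2 and 131.8 CPM, lay 0.33 ± 0.13 below bulk myoblasts (edgeR adjusted p = 0.0447). That call was lost with the replicate block, a term for the replicate number (edgeR adjusted p = 0.0597). It was lost too with DESeq2 size factors, with the DESeq2 test (DESeq2 adjusted p = 0.0631), with length-scaled counts and on leaving out any of 4 libraries (bulk myoblast replicate 1 or 2, bulk MPC replicate 1 or 3; edgeR adjusted p = 0.0744 to 0.151). Protein-coding transcripts held a mean of 59.1% to 67.6% of Rbpj TPM across the groups.

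Numb and its relative Numbl are endocytic adaptors that target Notch for degradation. Numb was at 14.1, 13.3 and 14.8 CPM in bulk myoblasts and 14.1, 13.2 and 15.6 CPM in GFP+ myoblasts. It was higher in differentiated myoblasts (20.3, 20.9 and 18.4 CPM) by 0.50 ± 0.12 (edgeR adjusted p = 0.00268) and in bulk MPC (25.0, 24.1 and 23.5 CPM) by 0.78 ± 0.12 (edgeR adjusted p = 8.20e-05), each against bulk myoblasts and without overlap. The first of these was 0.28 (edgeR adjusted p = 0.0533) with library totals. GFP+ MPC, at 17.8, 18.9 and 14.8 CPM, differed from GFP+ myoblasts by 0.26 ± 0.12 (edgeR adjusted p = 0.0740). That difference passed with protein-coding transcripts alone (0.30, edgeR adjusted p = 0.0482), without GFP+ myoblast replicate 3 (0.33, edgeR adjusted p = 0.0426) and without GFP+ MPC replicate 3 (0.36, edgeR adjusted p = 0.0170).

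Numbl was at 24.1, 28.7 and 17.6 CPM in GFP+ MPC and 38.8, 44.6 and 19.7 CPM in GFP+ myoblasts, which overlapped (-0.55 ± 0.28, edgeR adjusted p = 0.116). With protein-coding transcripts alone the difference was -0.73 (edgeR adjusted p = 0.0336), and without GFP+ myoblast replicate 3 it was -0.83 (edgeR adjusted p = 0.0105). It did not pass the test on differentiation (67.6, 55.8 and 69.8 CPM, against 46.9, 46.2 and 67.2 CPM in bulk myoblasts; 0.27 ± 0.27, edgeR adjusted p = 0.423). By TPM, the ratio of Numbl to Numb averaged 2.91 in bulk myoblasts, 1.99 in GFP+ myoblasts (0.866 to 2.79) and 0.906 in GFP+ MPC (0.765 to 0.979).

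**Figure D3:**
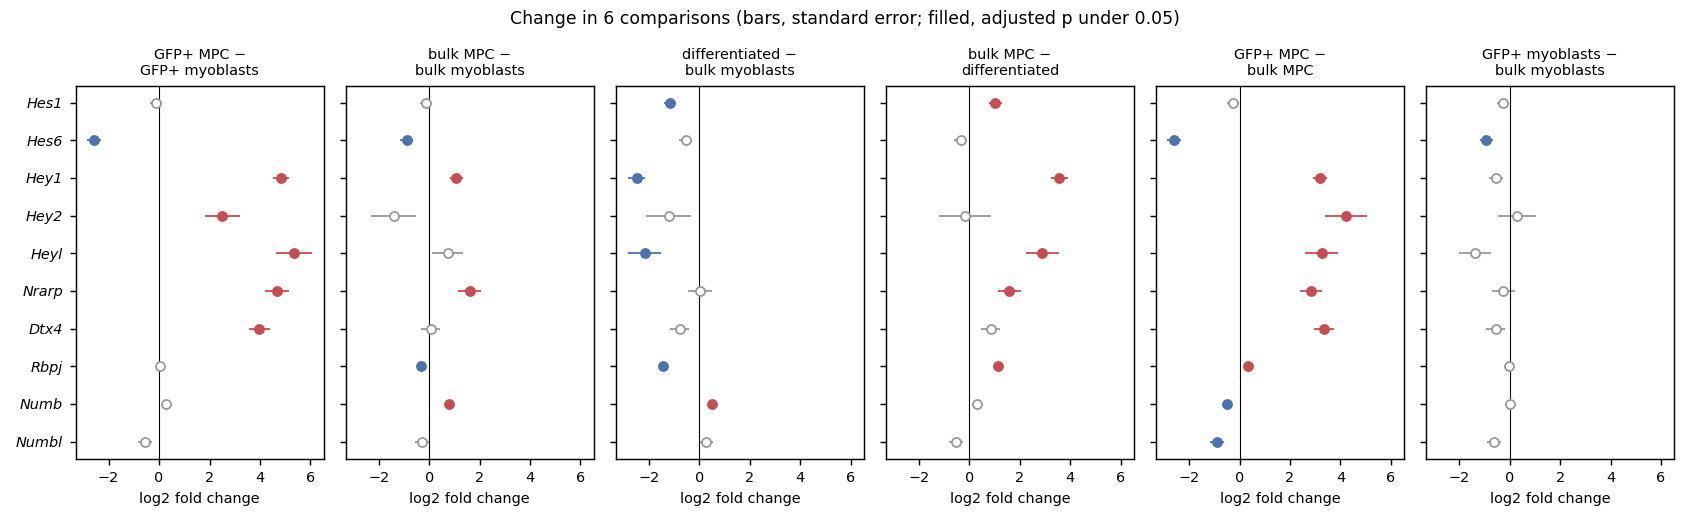
Log2 fold change of each of the 10 genes in 6 comparisons, with bars for the standard error and filled points where edgeR's adjusted p was under 0.05 (red higher, blue lower). Hey1, Hey2, Heyl, Nrarp and Dtx4 rose and Hes6 fell in both comparisons of GFP+ MPC, whereas sorting myoblasts gave 1 call, for Hes6.

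Counted over the list, 5 of the 10 genes were higher and 1 was lower in GFP+ MPC than in GFP+ myoblasts, a comparison in which 48.6% of all tested genes were called (26.0% higher, 22.7% lower). The median change was 1.38 over the 10 genes and 0.09 over all tested genes. The groups did not overlap for 5 of the 10 genes, against 51.5% of all tested genes. The calls in either direction and the count without overlap lie near these shares. The split of 5 higher and 1 lower is more uneven than 26.0% and 22.7%. The list was chosen with earlier results of these data known, so neither its counts nor its sizes test it. The absolute change of Heyl exceeded that of 97.6% of tested genes, Hey1 96.9%, Nrarp 96.6%, Dtx4 95.1%, Hes6 89.1% and Hey2 88.7%. Protein-coding transcripts alone gave 6 higher and 2 lower, with Numb and Numbl added.

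In bulk MPC against bulk myoblasts, 3 genes were higher (Hey1, Nrarp, Numb) and 2 lower (Hes6, Rbpj), where 58.5% of all tested genes were called (28.4% higher, 30.1% lower). The median was -0.04 against -0.01, and 5 of 10 genes did not overlap against 69.2% of tested genes, so neither count nor median sets the list apart. With library totals the split of all calls moved from 4408 higher and 4679 lower to 2747 and 6985, and that of the 10 genes stayed at 3 and 2.

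Differentiated against bulk myoblasts had 1 gene higher (Numb) and 4 lower (Hes1, Hey1, Heyl, Rbpj), where 54.2% of tested genes were called (25.6% higher, 28.6% lower). The median was -0.97 against -0.03 over all tested genes, and 5 of 10 genes did not overlap against 71.2% of tested genes. Dtx4 was at -0.78 ± 0.38 (edgeR adjusted p = 0.0969), and passed without bulk myoblast replicate 2 (-1.11, edgeR adjusted p = 0.0166). With library totals no gene of the 10 was higher and 6 were lower, Hes6 and Dtx4 (-0.99, edgeR adjusted p = 0.0455) added, while all calls moved from 3976 higher and 4441 lower to 2711 and 5805.

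Bulk MPC and differentiated myoblasts both hold much muscle RNA, as the sums of the differentiation markers show, and 5 of the 10 genes were higher in bulk MPC and 0 lower by edgeR, where 43.8% of tested genes were called (24.4% higher, 19.4% lower). They were Hey1 (3.57 ± 0.33, edgeR adjusted p = 4.97e-06), Heyl (2.89 ± 0.67, edgeR adjusted p = 0.00367), Nrarp (1.58 ± 0.46, edgeR adjusted p = 0.0136), Rbpj (1.12 ± 0.13, edgeR adjusted p = 2.61e-05) and Hes1 (1.03 ± 0.25, edgeR adjusted p = 0.00472). The Nrarp call was lost without differentiated replicate 3 (edgeR adjusted p = 0.0551) or bulk MPC replicate 2 (1.14, edgeR adjusted p = 0.0719). Dtx4 was at 0.84 ± 0.38 (edgeR adjusted p = 0.0879), and passed with the replicate block (edgeR adjusted p = 0.0478). With the compared groups alone in the fit, 9 of the 10 genes were tested and Numbl was called lower (-0.60, edgeR adjusted p = 0.0261), and the DESeq2 test called Numb higher (0.27, DESeq2 adjusted p = 0.0376) and no gene lower. At an unadjusted p under 0.05 edgeR also had 0 of the 10 genes lower. Hes6 did not pass (-0.36 ± 0.26, edgeR adjusted p = 0.283), but did without bulk MPC replicate 1 (-0.71, edgeR adjusted p = 0.0315). The median was 0.93 against 0.07, and 7 of 10 genes did not overlap against 59.6% of tested genes. All calls moved from 3792 higher and 3019 lower to 2824 and 3972 with library totals, and those of the 10 genes stayed at 5 and 0.

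GFP+ MPC were also set against the unsorted MPC culture. These groups differed in the sort and in the RNA kit, which cannot be told apart. In GFP+ MPC against bulk MPC, 6 of the 10 genes were higher and 3 lower, where 66.6% of tested genes were called (32.9% higher, 33.7% lower). The median was 1.58 against -0.01, and 8 of 10 genes did not overlap against 68.3% of tested genes. The ratio of mean CPM, sorted to unsorted, was 8.81 for Pax7 itself, 9.23 for Hey1, 9.53 for Heyl, 7.14 for Nrarp and 10.3 for Dtx4, near the ratio of the reporter's own gene. The corresponding changes were 3.20 ± 0.28 for Hey1 (edgeR adjusted p = 4.42e-07), 3.25 ± 0.65 for Heyl (edgeR adjusted p = 0.000606), 2.83 ± 0.44 for Nrarp (edgeR adjusted p = 6.44e-05) and 3.36 ± 0.40 for Dtx4 (edgeR adjusted p = 6.77e-06).

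Hey2, at 0.0934, 0.287 and 0.124 CPM in bulk MPC, was 4.20 ± 0.83 higher in GFP+ MPC (edgeR adjusted p = 0.000540), 4.85 without bulk MPC replicate 2 and 3.45 without GFP+ MPC replicate 1. Hes6 was lower in GFP+ MPC, with a ratio of 0.166 and a change of -2.59 ± 0.27 (edgeR adjusted p = 2.23e-06). Hes1 had a ratio of 0.841 and a change of -0.25 ± 0.24 (edgeR adjusted p = 0.381), which became 0.24 with library totals, and which passed the threshold without GFP+ MPC replicate 2 (-0.58, edgeR adjusted p = 0.0318). Rbpj was called higher by 0.32 ± 0.13 (edgeR adjusted p = 0.0423) although its libraries overlapped. The Rbpj call was lost with DESeq2 size factors (edgeR adjusted p = 0.0624), the DESeq2 test (DESeq2 adjusted p = 0.0574), length-scaled counts (0.172), the compared groups alone (0.135) and the replicate block (0.0606), and on leaving out bulk MPC replicate 1 or 3 or GFP+ MPC replicate 2 or 3 (0.0712 to 0.201).

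The lower calls of Numb and Numbl after the MPC sort depended on scaling. Numb was 0.50 ± 0.11 lower (edgeR adjusted p = 0.00178) with TMM. Its difference was -0.02 (edgeR adjusted p = 0.898) with library totals and 0.07 as the log2 ratio of mean TPM. Numbl was 0.91 ± 0.28 lower (edgeR adjusted p = 0.0108) with TMM and -0.44 (edgeR adjusted p = 0.192) with library totals. The Numbl call was also lost without bulk MPC replicate 3 (edgeR adjusted p = 0.0542) or GFP+ MPC replicate 3 (edgeR adjusted p = 0.0517). With library totals the 10 genes gave 6 higher and 1 lower, and all calls moved from 5118 higher and 5232 lower to 7470 and 3522.

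In GFP+ against bulk myoblasts 1 of the 10 genes was called: Hes6 was 0.93 ± 0.26 lower (edgeR adjusted p = 0.0168). There 30.0% of tested genes were called (12.7% higher, 17.4% lower). The Hes6 call was lost without bulk myoblast replicate 1 (edgeR adjusted p = 0.0502) or GFP+ myoblast replicate 3 (edgeR adjusted p = 0.0692). The ratio of mean CPM of Pax7, sorted to unsorted, was 1.56 here, against 8.81 in MPC. The median was -0.40 against -0.02, and 3 of 10 genes did not overlap against 52.7% of tested genes. Heyl stood at -1.38 ± 0.63 (edgeR adjusted p = 0.110) and passed without bulk myoblast replicate 2 (-1.81, edgeR adjusted p = 0.0357) or GFP+ myoblast replicate 1 (-2.22, edgeR adjusted p = 0.0312). Hey1 stood at -0.54 ± 0.28 (edgeR adjusted p = 0.157). All calls moved from 1966 higher and 2701 lower to 2981 and 2261 with library totals.

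The effect of the sort in MPC was compared with that in myoblasts in the same fit. For 5 genes the MPC effect was higher and for 2 it was lower, where 37.1% of tested genes were called (20.3% higher, 16.8% lower), and the median difference was 1.72 against 0.09. The differences were 3.75 ± 0.39 for Hey1 (edgeR adjusted p = 2.46e-05), 3.91 ± 0.54 for Dtx4 (edgeR adjusted p = 0.000166), 4.63 ± 0.90 for Heyl (edgeR adjusted p = 0.00152), 3.08 ± 0.63 for Nrarp (edgeR adjusted p = 0.00212), 3.91 ± 1.13 for Hey2 (edgeR adjusted p = 0.0153) and -1.67 ± 0.37 for Hes6 (edgeR adjusted p = 0.00327). Leaving out bulk myoblast replicate 3 gave 3.65 for Heyl and 3.27 for Dtx4, leaving out GFP+ myoblast replicate 1 gave 5.47 for Heyl and 3.89 for Nrarp, and Hey2 ranged from 3.16 without GFP+ MPC replicate 1 to 4.56 without bulk MPC replicate 2. The seventh, Numb (-0.52 ± 0.16, edgeR adjusted p = 0.0238), was at -0.15 (edgeR adjusted p = 0.485) with library totals, and was lost without bulk myoblast replicate 2 (edgeR adjusted p = 0.0613) or bulk MPC replicate 1 (edgeR adjusted p = 0.0516). Rbpj was at 0.35 ± 0.18 (edgeR adjusted p = 0.148), at 0.72 (edgeR adjusted p = 0.00653) with library totals, and at 0.50 (edgeR adjusted p = 0.0209) without GFP+ MPC replicate 1. Over all tested genes that scaling moved the split from 3149 higher and 2606 lower to 5490 and 1547.

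Within groups the strongly changing genes varied together in a few libraries. Hey1, Hey2, Heyl, Nrarp and Dtx4 were each highest in bulk myoblast replicate 3, a library that is the highest of its group for 39.1% of all tested genes and has the lowest Pax7 of its group (528 CPM). The same 5 genes were each highest in bulk MPC replicate 2, which is the highest for 36.0% of tested genes. There Pax7 was highest too, at 137 CPM against 66.5 and 57.2 CPM, and so were the receptor Notch3 (210 CPM against 69.4 and 93.8 CPM) and the summed fibroblast markers (719 CPM against 73.2 and 128 CPM). The part of these markers in the higher level was not tested. The other groups were more divided. Of the 5 genes, 3, 1 and 1 were highest in GFP+ myoblast replicates 1, 2 and 3, and 1, 2 and 2 in the differentiated replicates. In GFP+ MPC, Hey1, Heyl and Dtx4 were highest in replicate 3, which is the highest for 32.6% of tested genes. Replicate 1 of that group stood apart in the sum of 10 stress genes (833 CPM against 437 to 463 CPM), in its lower Pax7 and in the highest Hey2.

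**Figure D4:**
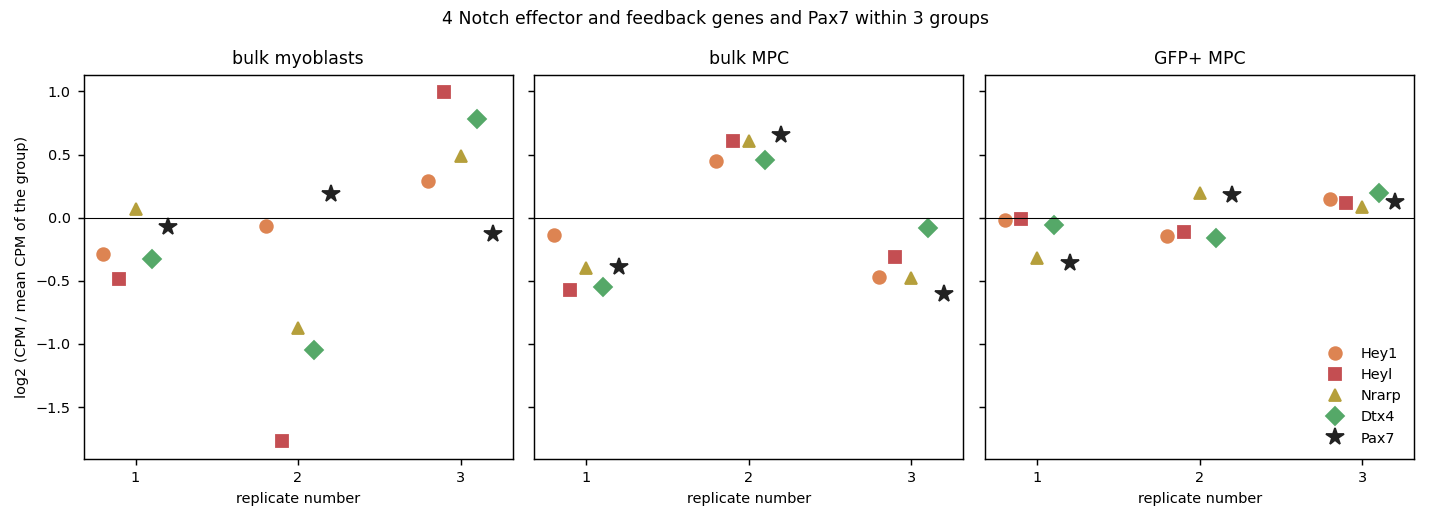
Level of Hey1, Heyl, Nrarp, Dtx4 and Pax7 in each library relative to the mean of its group (log2 ratio of CPM), for bulk myoblasts, bulk MPC and GFP+ MPC by replicate number. The 4 Notch genes lie together above 0 in bulk myoblast replicate 3, where Pax7 lies below 0, and in bulk MPC replicate 2, where Pax7 also lies above 0.

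The high-passage library had no replicate and entered no test. Its Heyl (436 CPM), Hey1 (85.1 CPM) and Hes6 (28.2 CPM) lay below the 3 GFP+ MPC libraries. Hes1 (37.9 CPM), Hey2 (0.684 CPM), Nrarp (29.4 CPM), Dtx4 (479.5 CPM) and Numbl (22.5 CPM) lay inside their range, and Rbpj (213.9 CPM) and Numb (21.7 CPM) lay above it. Its Pax7, at 302 CPM, was lower than in any GFP+ MPC library, while Hey1 and Heyl together still held 71.3% of the summed repressor TPM and Hes6 held 11.3%. These cells differed from the others in sex, age, passage and sorting history, which cannot be told apart.

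For the 6 genes whose group means spanned at least 2 on the log2 scale, the genes of most similar course over the 5 groups were looked up among 10247 abundant protein-coding genes, by the root mean square (RMS) difference of centred log2 group means. Hey1 was closest to the receptor gene Pdgfrb (0.20), followed by Tril (0.38) and Heyl (0.41). Hey2 was closest to the Notch ligand Jag1 (0.19), Dtx4 to Dmrt2 and Itga1 (0.26 each), Nrarp to Gucy1b1 (0.27) and Lgr5 (0.34), and Heyl to Gulp1 (0.30). Hes6 was closest to Fam83h (0.21), Scml4 (0.22) and Bend4 (0.24). With 5 group means and so many candidates, this describes the shape of the profile and no more. Hes1, Rbpj, Numb and Numbl spanned 0.78 to 1.48 and were not matched.

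The rest of the pathway was read from lists by role. In GFP+ MPC against GFP+ myoblasts 48.6% of all tested genes were called (26.0% higher, 22.7% lower). Of the receptors, ligands and fringe glycosyltransferases, 10 of 12 were tested, and in GFP+ MPC against GFP+ myoblasts 7 were higher and 1 was lower, with a median of 1.31 (6 and 1 with library totals, 5 and 1 with DESeq2). Notch3, a receptor and itself a Notch target, rose from 185 ± 46.6 to 935 ± 192 CPM (SD, n = 3; 2.34 ± 0.40, edgeR adjusted p = 0.000392). Notch1 rose from 202 ± 23.2 to 495 ± 63.9 CPM (1.30 ± 0.23, edgeR adjusted p = 0.000498). The ligands split: Jag1 rose by 2.24 ± 0.24 (edgeR adjusted p = 9.30e-06) and Jag2 fell by 1.59 ± 0.19 (edgeR adjusted p = 1.72e-05). Mfng was also called, but 1 GFP+ MPC library held 125 counts and the others 5 and 7, against 0, 1 and 4 in GFP+ myoblasts. Dll1, a ligand of the Delta family, was at 0.66 ± 0.31 (edgeR adjusted p = 0.0935) and Notch2 at 0.19 ± 0.21 (edgeR adjusted p = 0.487).

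Of 12 genes of receptor maturation and cleavage, 5 were higher and 2 lower (median 0.20), led by Psen2, a catalytic subunit of gamma-secretase, at 90.2 ± 9.72 CPM in GFP+ MPC and 7.21 ± 1.62 CPM in GFP+ myoblasts (3.64 ± 0.26, edgeR adjusted p = 2.17e-07). Of 14 tested nuclear partners of Rbpj, 2 were higher (Kat2b 1.09, Spen 0.42) and 4 lower (among them Maml2 at -1.32 and Maml3 at -0.97), with a median of 0.07 against 0.09 over all tested genes. Over all tested genes 48.6% were called in this comparison (26.0% higher, 22.7% lower). Of 14 ubiquitin ligases and endocytic regulators, 5 were higher and 2 lower (median 0.02). Of 8 other hairy-family repressors and Groucho corepressors, 4 were higher and 2 lower (median 0.30), with Bhlhe40 at 67.1 CPM against 3.29 CPM (4.38 ± 0.52). Of 7 genes known as Notch-responsive in muscle stem cells, 6 were higher and none lower, with a median of 3.09 that did not change with Calcr at its bound. The collagen genes Col6a2 (6.43), Col6a1 (5.16) and Col5a3 (3.09) were among them. Calcr, the calcitonin receptor gene of quiescent satellite cells, had 59, 20 and 78 counts in GFP+ MPC and none in GFP+ myoblasts, at least 58.2-fold higher against a floor of 3 counts over the group. Pax7 did not pass (-0.24 ± 0.33, edgeR adjusted p = 0.577).

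In GFP+ MPC against bulk MPC, 6 of the 10 tested receptors, ligands and fringes were higher and 1 was lower (median 1.73). Notch3 rose by 2.91 ± 0.41, Jag1 by 3.08 ± 0.26, Lfng by 4.67 ± 0.59 and Notch1 by 2.18 ± 0.24, and Jag2 fell by 2.37 ± 0.19. Nuclear partners of Rbpj gave 6 higher and 1 lower of 14 (median 0.22), and 12 higher and none lower with library totals. Over all tested genes 66.6% were called there (32.9% higher, 33.7% lower). Library totals moved that split from 5118 higher and 5232 lower to 7470 and 3522. After the sort of myoblasts edgeR called 0 of the 10 receptors, ligands and fringes and 0 of the 7 responsive genes, as did DESeq2. Over all tested genes 30.0% were called by edgeR in that comparison (12.7% higher, 17.4% lower). At an unadjusted p under 0.05 edgeR had 1 receptor, ligand or fringe gene lower and no responsive gene. On differentiation 1 of the 10 receptors, ligands and fringes was higher and 6 were lower (median -1.14). Lfng was at -4.24, Notch3 at -3.58 and Jag1 at -1.33. Of the 7 responsive genes 4 were lower, Pax7 among them (-3.67 ± 0.37, edgeR adjusted p = 4.41e-06). The share of all tested genes called on differentiation was 54.2% (25.6% higher, 28.6% lower). In bulk MPC against bulk myoblasts, 1 of the 10 receptors, ligands and fringes was higher and 4 were lower (median -0.70). Library totals gave 0 higher and 6 lower of these 10. Hey1 and Nrarp were higher in that comparison. Of all tested genes 58.5% were called (28.4% higher, 30.1% lower). Library totals moved all calls from 4408 higher and 4679 lower to 2747 and 6985.

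**Figure D5:**
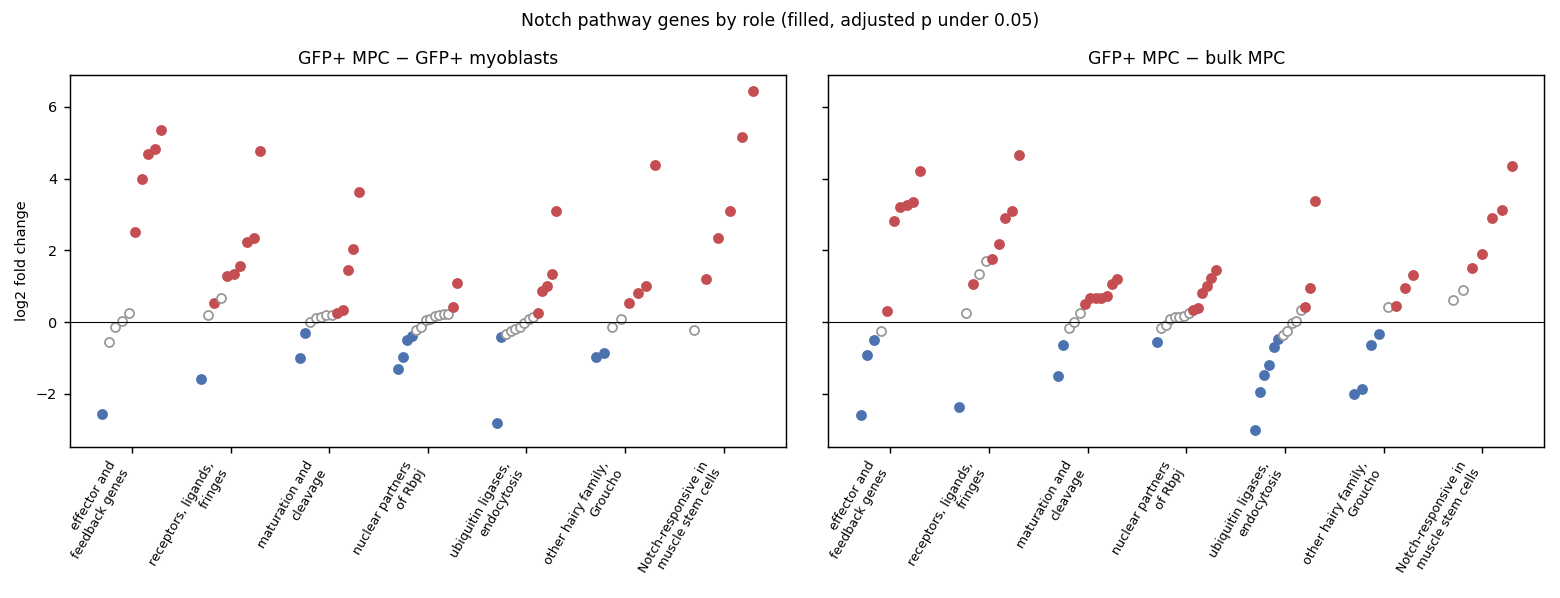
Log2 fold change of each tested gene of the 10 effector and feedback genes and of 6 pathway lists, in GFP+ MPC against GFP+ myoblasts (left) and against bulk MPC (right); each point is a gene, filled where edgeR's adjusted p was under 0.05 (red higher, blue lower). Calcr, at 0 counts in GFP+ myoblasts, is not drawn on the left; the receptor list has 7 higher and 1 lower on the left and 6 higher and 1 lower on the right.

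Markers of other cell types that also use Notch were read in the same comparison of sorted cells, with their sums in the other groups beside it. Of all tested genes, 48.6% were called in GFP+ MPC against GFP+ myoblasts (26.0% higher, 22.7% lower). Pericyte and smooth muscle markers, whose list shares Notch3 with the pathway, summed to 1400 to 1666 CPM in GFP+ MPC against 436 to 845 CPM in GFP+ myoblasts, with 5 higher and 1 lower of 9 tested. Pdgfrb was at 109 CPM against 4.49 CPM (4.57 ± 0.97), and at 8.53 CPM in bulk myoblasts. The sum of the pericyte and smooth muscle markers was 1424 to 1781 CPM in bulk myoblasts. It was 1185 to 1292 CPM in differentiated myoblasts and 488 to 767 CPM in bulk MPC. Schwann cell markers summed to 128 to 256 CPM in GFP+ MPC against 17.1 to 26.4 CPM in GFP+ myoblasts, with 3 higher and 1 lower of 4 tested. Ngfr was at 67.5 CPM against 0.645 CPM and Mbp at 0.264 CPM against 10.1 CPM, while the defining markers Sox10 and S100b were at 0 in both groups. The Schwann sum was highest in differentiated myoblasts, at 515 to 555 CPM. It was 173 to 302 CPM in bulk myoblasts and 226 to 252 CPM in bulk MPC. Fibroblast markers summed to 995 to 1513 CPM in GFP+ MPC against 587 to 896 CPM in GFP+ myoblasts, with 1 higher and 1 lower of 5 tested. Their sum was 647 to 748 CPM in bulk myoblasts, 32.4 to 92.6 CPM in differentiated myoblasts and 73.2 to 719 CPM in bulk MPC. Differentiation markers had 5 higher and 1 lower of 8 in GFP+ MPC against GFP+ myoblasts. The part of these markers in the levels of the 10 genes was not tested.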

How the data were processed

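The deposited files, 1 per library, hold the estimated count, the TPM, the length and the effective length of each transcript, per the file headers. Lengths (other values per the file headers) served only for length-scaled counts. The authors' estimated counts were the main measure, and the deposited TPM served to compare genes. Per the submitters' processing notes, fastp 0.20.0, kallisto 0.46.1 and the mouse build GRCm39 were used upstream. Per the labels, the libraries were single-end and stranded after poly(A) selection, and sorted cells had another RNA kit than unsorted cells.

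The counts of a gene's transcripts were added and rounded; 120739 of 121798 transcripts matched GENCODE M21, and 1059 (0.478% to 1.05% of counts) did not and were left out. The 15 replicated libraries were fitted together with edgeR 4.0.16 in R 4.3.3 (TMM, minimum count 10, minimum total 15, 1 term per group), which tested 15533 genes with a common dispersion of 0.047 and 10 residual degrees of freedom, for 7 comparisons. The script was tested on simulated data, and replicates differed by more than counting error (chi-square over its degrees of freedom ran from 10.6 to 64.1). TMM factors were 0.767 to 0.867 in bulk MPC. The standard error of a log2 change was worked back from edgeR's test. It is the absolute change over the square root of the F statistic, with the spread estimated over all 15 libraries.

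The 10 genes, the lists and the tests were chosen with earlier results of these data known. The text names these 10 genes, Pax7, Myod1, Myog, Myh3 and Ckm, and of each list up to 4 genes with the largest called change, up to 2 against the majority and any class of 5 or fewer, though not every such gene is reported here; Notch3, Pdgfrb and the low-count genes beside them were added after their values were seen. The similar genes are the 3 nearest per gene with at least 10 CPM in a group.

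Same-numbered libraries were checked for shared deviations: only bulk myoblasts and bulk MPC had all 3 correlations over 0.1 (0.134 to 0.149). These are weak, and the highest single value, 0.226, was between differentiated myoblasts and bulk MPC at replicate 1. Whether any groups are paired is therefore not settled. The main fit had no block, and the replicate block is a term over all 5 groups. Library names of the same replicate number share a further number in all 5 groups, which the labels do not explain, so calls changed by the block are given wherever they occur. Alternatives were DESeq2 1.42.0, its size factors, no filter, the replicate block, length-scaled counts, the compared groups alone and leaving out each library. Library totals without TMM and protein-coding transcripts alone were added after the data were seen.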

Additional observations from a re-analysis of the deposited data

Results flagged for a closer look

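For 7 of the 10 genes the effect of sorting for the Pax7 reporter differed between the MPC and the myoblast culture by edgeR's test of the difference itself (edgeR adjusted p under 0.05), where 37.1% of all tested genes were called. On the log2 scale the difference was 4.63 for Heyl, 3.91 for Hey2, 3.91 for Dtx4, 3.75 for Hey1 and 3.08 for Nrarp, all with the larger effect in MPC, and -1.67 for Hes6 and -0.52 for Numb. The Numb difference was lost with library totals (-0.15), without the low-count filter (edgeR adjusted p = 0.0953), with length-scaled counts (edgeR adjusted p = 0.0580), with protein-coding transcripts alone (-0.45, edgeR adjusted p = 0.050011) and without either of the 2 libraries named in the report.

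The high-passage library, which entered no comparison, lay above all 3 GFP+ myoblast libraries for 6 of the 10 genes. Its levels were 85.1 CPM for Hey1, 436 CPM for Heyl, 29.4 CPM for Nrarp, 479.5 CPM for Dtx4, 213.9 CPM for Rbpj and 21.7 CPM for Numb. The highest GFP+ myoblast library had 6.07 CPM of Hey1, 26.7 CPM of Heyl, 2.12 CPM of Nrarp, 35.3 CPM of Dtx4, 196.9 CPM of Rbpj and 15.6 CPM of Numb. With 1 library there is no replicate check of these levels. The share of all tested genes lying above in the same way was not counted, so 6 of 10 has no background here.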

How the results depend on the processing

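Over all settings other than leaving out a library, 515 single-gene results kept direction and side of the threshold, 17 lost and 10 gained a call and 15 changed sign; leaving out 1 library gave 425, 19, 10 and 26. The changes of sign, on the log2 scale, were small and in uncalled values apart from Numb. With library totals, GFP+ MPC against bulk MPC gave 0.24 for Hes1, bulk MPC against bulk myoblasts -0.28 for Dtx4, differentiated against bulk myoblasts -0.19 for Nrarp, GFP+ against bulk myoblasts 0.072 for Rbpj, and the difference of sort effects 0.082 for Numbl. Nrarp was at -0.040 on differentiation without a filter, Rbpj at -0.036 with length-scaled counts and -0.037 with the compared groups alone in GFP+ MPC against GFP+ myoblasts, and Numb at -0.057 with protein-coding transcripts and -0.0063 with the compared groups alone in GFP+ against bulk myoblasts. The difference of sort effects of Hes1 was -0.054 with DESeq2 size factors and the DESeq2 test, -0.022 with the replicate block, -0.028 with length-scaled counts and -0.0012 with the compared groups alone. As a log2 ratio of mean TPM, Numb was at 0.067 in GFP+ MPC against bulk MPC. Of such ratios 12 others moved by more than the replicate spread. Why these changed was not tested.

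Leaving out 1 library moved Hes1 between -0.47 and 0.13 and Rbpj between -0.11 and 0.17 (GFP+ MPC against GFP+ myoblasts), Hes1 between -0.33 and 0.011 and Dtx4 between -0.27 and 0.70 (bulk MPC against bulk myoblasts), Nrarp between -0.25 and 0.34 (differentiation), Hey2 between -0.83 and 0.27 (bulk MPC against differentiated), and Hes1 between -0.58 and 0.021 (GFP+ MPC against bulk MPC). In GFP+ against bulk myoblasts Hey2 ran from -0.22 to 0.58, Nrarp from -1.05 to 0.064, Dtx4 from -0.88 to 0.088, Rbpj from -0.11 to 0.037 and Numb from -0.042 to 0.078, and the difference for Hes1 ran from -0.33 to 0.27. Of the 10 genes, 1 was called in GFP+ against bulk myoblasts, 0 to 2 without a library, and 2 with length-scaled counts, where Hey1 was added; all tested genes ran from 2719 (without bulk myoblast replicate 3) to 4109 there.

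With the replicate block 6, 4, 5, 6, 8, 1 and 7 of the 10 genes were called in the 7 comparisons in the order of the report, against 6, 5, 5, 5, 9, 1 and 7, and no call changed other than Rbpj (bulk MPC against bulk myoblasts, GFP+ MPC against bulk MPC) and Dtx4 (bulk MPC against differentiated). Over all groups, 7 of 30 same-numbered pairs correlated above 0.1 (range -0.16 to 0.226) and 10 of 15 libraries were closest to their own number; only bulk myoblasts and bulk MPC had all 3 pairs above it. Hey2, at 1 to 28 counts outside GFP+ MPC, limits what depth can show.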
